A study of Drosophila melanogaster with 6 samples.

Results

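Proneural genes encode basic helix-loop-helix (bHLH) transcription factors that give ectodermal cells the competence to become neural precursors. Each acts as a heterodimer with Daughterless, the broadly made class I bHLH partner, and binds DNA at E-boxes; Notch signalling then restricts the proneural state to single cells. The genes described here were the achaete-scute complex genes ac, sc, l(1)sc and ase, the atonal family genes ato, amos and cato, the neurogenin relative tap, the Olig relative Oli, and da itself. Not all are proneural in the strict sense. The genes ase and cato act after a precursor is chosen, tap and Oli are grouped here by family, and da is the partner. Members were taken as the probe sets that the platform's probe-to-gene table pairs with exactly one of these 10 symbols. All 10 genes were found, with 1 probe set each, among 11982 genes measured by a probe set of their own and 18769 tested probe sets.

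The study measured RNA of whole Drosophila melanogaster embryos at stages 11 to 16 on 6 Affymetrix arrays. The wild type group (3 arrays) was Oregon R, the Sage group (3 arrays) carried UAS-Sage under tub-Gal4, and the labels name Oregon R as the background of each. Sage is a bHLH factor of the salivary gland in the embryo, and tub-Gal4 uses a tubulin promoter active in most cells, so the comparison asks how genes respond when this tissue-specific bHLH factor is made throughout the embryo. The labels name no driver or transgene in the wild type embryos, so effects of the driver and of Sage cannot be told apart. They do not say that replicates are separate collections, and the p-values then cover the spread between these samples alone, which may be technical.

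The targeted gene followed the labels. The sage probe set read 7.68, 8.08 and 7.40 on wild type arrays 1 to 3 and 12.17, 12.31 and 12.28 on the Sage arrays (log2 difference 4.53, limma adjusted p 7.5e-05). Neuron, glia, epidermis and gland genes of the whole embryo were present, with wild type means of 9.56 for elav, 9.71 for repo, 10.16 for grh and 8.15 for fkh. The germ line gene vas (4.49) and the blood cell gene Hml (4.85) read no higher than control probe sets. The blood cell and fat body gene srp read well above them, with a wild type mean of 8.87. Some array controls moved with the groups. All 24 polyA spike-in probe sets were lower on the Sage arrays (median log2 difference -1.65). The 3′ minus 5′ gap of actin, GAPDH and eIF-4a, a control of RNA quality, was larger on those arrays by 1.29, 0.83 and 0.82. The part of these shifts in the results below was not tested. Wild type arrays varied more than Sage arrays for 64.4% of tested probe sets, and for 9 of the 10 members.

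None of the 10 members passed the main test, which took no pairing of arrays, and 2 passed with replicate number as a block. Standard errors, intervals and needed differences below are from the main test unless the block is named. With limma and Benjamini-Hochberg adjustment over all 18769 probe sets, 6.12% of them passed an adjusted p of 0.05 (3.24% higher and 2.88% lower in the Sage embryos), and the members' adjusted p-values ran from 0.102 for ato to 0.993 for ac. Unadjusted p-values under 0.05 were seen for 3 members, ato, cato and l(1)sc, where 21.1% of all probe sets had one. Of the 10 members 5 had a higher and 5 a lower mean in the Sage embryos, with a median log2 difference of -0.0029 against 0.00053 over all tested probe sets. With replicate number as a block, 2 members passed, l(1)sc lower and ato higher, where 11.7% of all probe sets passed (5.74% higher and 5.94% lower). That fit takes the arrays of one number as a pair.

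Signal was low for many of these genes, as far as control probe sets can show. Of the controls, 70 were taken to match no fly RNA, and their group means spanned 3.23 to 5.35 on the log2 scale. Both group means of ac, sc, l(1)sc and amos lay within that range, and so did the Sage mean of cato. The other members, ase, ato, tap, Oli and da, had both means above it. Of these ato lay nearest to the range, with a wild type mean of 5.64. Its wild type array 3 read 5.483, beside a highest single control value of 5.475. A difference measured within the control range may understate a change in RNA. In whole embryos, fewer cells of a type and less RNA per cell cannot be told apart.

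**Figure D1:**
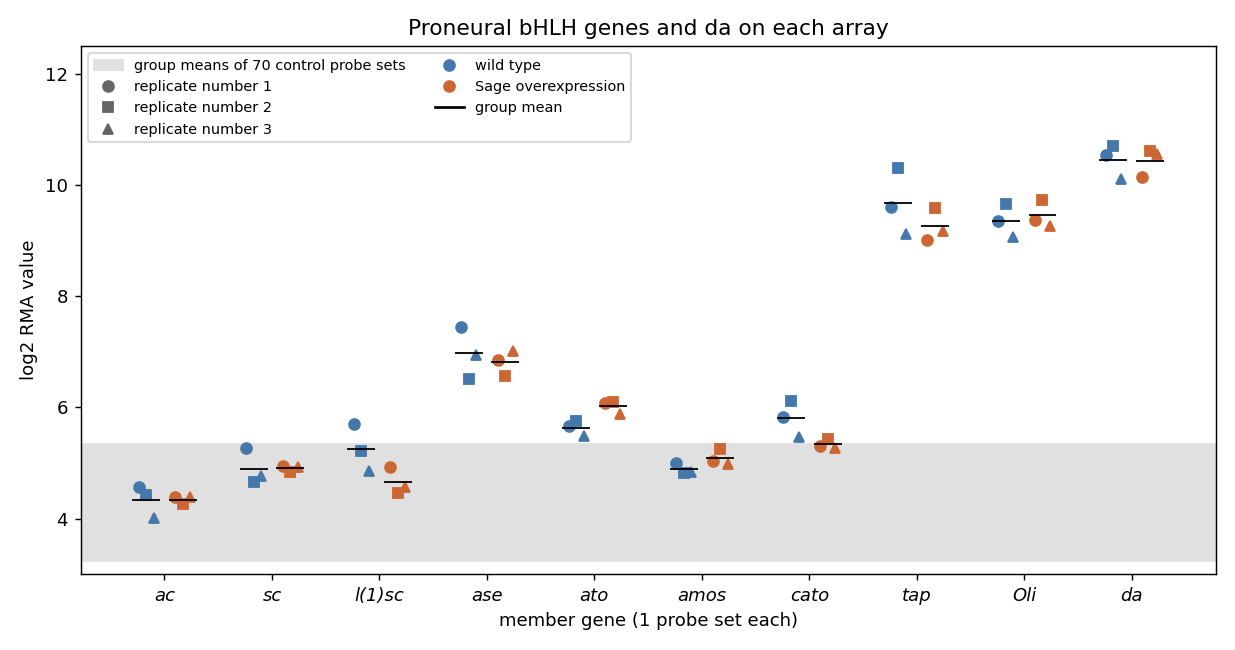
Log2 RMA values (y axis) of the 10 member probe sets (x axis) on each of the 6 arrays. Wild type is blue and Sage overexpression orange, with marker shape for replicate number and bars for group means. The grey band spans the group means of 70 control probe sets taken to match no fly RNA (3.23 to 5.35). The groups separate for ato and cato, ac, sc, l(1)sc and amos have means in the band, and the values of da overlap fully.

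Daughterless (da), the partner that proneural factors need to bind DNA, showed no measurable difference. It read 10.53, 10.70 and 10.11 on wild type arrays 1 to 3 and 10.15, 10.61 and 10.55 on the Sage arrays. The lowest and the highest of the 6 values were both wild type, so the Sage values lay inside the wild type range. The log2 difference was -0.01 (SE 0.19, 95% interval -0.48 to 0.45, adjusted p 0.985). The interval leaves room for a change of less than 0.5 on the log2 scale in either direction, and at this spread a difference of 0.89 would have been needed to pass. The sign itself depended on the setting: the difference was 0.03 with quantile normalization and 0.01 with array weights.

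The profile of da over the 6 arrays followed differences between arrays of one group more than the groups. By root mean square distance between log2 values centred on each probe set's own mean, its nearest one-gene probe sets were Gyc89Db (0.041 over 6 arrays), otk2 (0.056) and bowl (0.066). Their log2 differences between the groups were -0.06, -0.04 and -0.05, none past the threshold. Differences near that of da followed from the choice by closeness over the same 6 arrays. Gyc89Db encodes a soluble guanylyl cyclase subunit and bowl a zinc-finger factor of the odd-skipped family.

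The achaete-scute complex genes lie next to each other on the X chromosome in the order ac, sc, l(1)sc, ase. Between ac and ase the Release 6 gene annotation places 3 noncoding genes and 1 other protein-coding gene, Pgcl, none with a one-gene probe set here. Wild type array 1 read highest of its group for all 4 genes, as it did for 23.3% of tested probe sets.

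Achaete (ac), which with scute sets up external sensory organ precursors, read 4.57, 4.42 and 4.01 in wild type and 4.38, 4.26 and 4.38 in Sage overexpression. Every value was in the control range, and the Sage values lay inside the wild type range. Its log2 difference was 0.00 (95% interval -0.36 to 0.37).

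Scute (sc), also a counting element of sex determination in the early embryo, read 5.28, 4.66 and 4.77 in wild type and 4.95, 4.84 and 4.94 in Sage overexpression. Array 1 of wild type stood above the other 5 arrays, which lay close together. This left a log2 difference of 0.01 (95% interval -0.40 to 0.42, adjusted p 0.982), and its sign turned with median centring (-0.03), with quantile normalization (-0.01) and with array weights (-0.22). The sign for ac turned with the same settings, to -0.03, -0.02 and -0.10.

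Lethal of scute (l(1)sc), the complex member most widely used in embryonic neuroblast formation, had the largest difference of the members. It read 5.71, 5.22 and 4.85 on wild type arrays 1 to 3 and 4.93, 4.47 and 4.57 on the Sage arrays. Wild type array 3 lay just below Sage array 1, so the groups overlapped at that one place. The log2 difference was -0.60 (SE 0.24, 95% interval -1.17 to -0.03, adjusted p 0.212), where a difference of 1.09 in size would have been needed. Differences between arrays of the same number were -0.77, -0.75 and -0.28, so all were negative. The 3 differences shared a sign for 5 members (amos, ato, cato, l(1)sc and Oli) and for 47.7% of tested probe sets. With the replicate block the standard error was 0.13 and the gene passed (limma adjusted p 0.041). Without wild type array 1 the difference was -0.38. The Sage mean of 4.66 and the wild type mean of 5.26 were both in the control range.

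Asense (ase), which marks neural precursors after they are chosen and stays on in neuroblasts, read 7.45, 6.51 and 6.94 in wild type and 6.85, 6.56 and 7.01 in Sage overexpression. Wild type array 1 was highest and wild type array 2 lowest of all 6. The log2 difference was -0.16 (SE 0.25, 95% interval -0.76 to 0.43, adjusted p 0.794). The same-number differences were -0.60 for number 1 and 0.05 and 0.07 for the others, and without wild type array 1 the sign turned, to 0.08.

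Atonal (ato), the proneural gene of chordotonal organs and photoreceptors, was the only member with every Sage array above every wild type array. It read 5.66, 5.76 and 5.48 in wild type and 6.07, 6.09 and 5.89 in Sage overexpression. Of the members 2, ato and cato, had groups that did not overlap, as did 27.6% of all tested probe sets (14.0% with Sage higher, 13.6% with Sage lower). The means differed by a log2 value of 0.38 (SE 0.11, 95% interval 0.12 to 0.64), which did not pass over all probe sets (adjusted p 0.102). The same-number differences of 0.41, 0.33 and 0.41 were nearly equal, and with the replicate block the gene passed narrowly (limma adjusted p 0.0494). An exact two-sided permutation test gave p = 0.1, the smallest that 3 arrays against 3 allow.

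The one-gene probe sets whose centred profiles lay nearest to ato were CG43896, at a root mean square distance of 0.031 over 6 arrays, Cht5 at 0.031 and CG13928 at 0.051. Cht5 encodes a chitinase of the cuticle. Like ato, the 3 had higher means in the Sage embryos, by 0.40, 0.36 and 0.37 on the log2 scale. None passed the threshold (adjusted p 0.086, 0.106 and 0.061). That likeness followed from the choice, since the 3 were picked for closeness to ato over the same 6 arrays.

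Absent MD neurons and olfactory sensilla (amos), an atonal relative named for the organs it specifies, read 5.01, 4.82 and 4.83 in wild type and 5.03, 5.25 and 4.98 in Sage overexpression. Only Sage array 3 fell below wild type array 1, and all values were in the control range. Its log2 difference was 0.20 (SE 0.11, 95% interval -0.06 to 0.46, adjusted p 0.359).

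Cousin of atonal (cato), expressed in sensory precursors after the proneural choice is made, had all Sage arrays below all wild type arrays. It read 5.83, 6.12 and 5.46 in wild type and 5.30, 5.43 and 5.28 in Sage overexpression. The gap between the nearest values of the groups was small. Its log2 difference was -0.47 (SE 0.17, 95% interval -0.88 to -0.06, adjusted p 0.181; 0.071 with the replicate block). Without wild type array 2 it was -0.31. The exact two-sided permutation p was again 0.1.

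The signs of ato and cato were opposite, although both belong to the atonal family. Each kept its sign in all 16 other settings that were run. Array weights, which gave wild type array 2 a weight of 0.22 and wild type array 1 a weight of 3.22, let 3 members pass: ato (limma adjusted p 0.036), cato (adjusted p 0.021) and l(1)sc (adjusted p 0.023). In that fit 3986 of all probe sets passed, against 1149 with equal weights and no block.

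**Figure D2:**
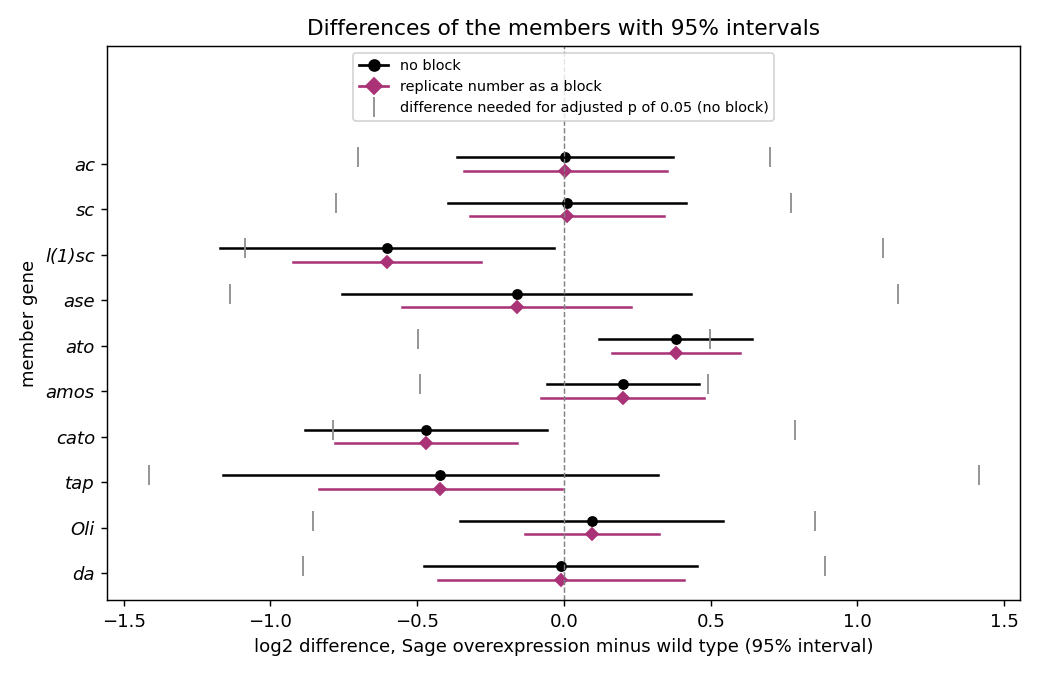
Log2 differences (x axis, Sage overexpression minus wild type) of the 10 members (y axis) with 95% intervals from limma, without a block (circles) and with replicate number as a block (diamonds); grey ticks mark the difference each gene would have needed for an adjusted p of 0.05 without the block. Without the block only the intervals of l(1)sc, cato and ato leave out 0, and with the block those of l(1)sc, cato, ato and tap do. No circle lies beyond its tick.

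Target of Pox-neuro (tap), a neurogenin relative of neurons and some sensory cells, read 9.61, 10.30 and 9.12 in wild type and 9.02, 9.58 and 9.17 in Sage overexpression. Wild type array 2 stood highest and Sage array 1 lowest. Its log2 difference was -0.42 (SE 0.31, 95% interval -1.16 to 0.32, adjusted p 0.525). A difference of 1.41 would have been needed, the most of any member, and its pooled spread was above that of 93.9% of tested probe sets. Without wild type array 2 the difference was -0.11, and without wild type array 3 it was -0.70. With the replicate block the 95% interval was -0.84 to -0.006, and the gene did not pass (limma adjusted p 0.184).

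Olig family (Oli), a bHLH gene of the developing nervous system with known roles in motor neurons, read 9.35, 9.66 and 9.07 in wild type and 9.37, 9.72 and 9.27 in Sage overexpression. Values matched closely by replicate number, with differences of 0.03, 0.06 and 0.19. The group means differed by 0.09 on the log2 scale (SE 0.19, 95% interval -0.35 to 0.54, adjusted p 0.841), and with the replicate block the interval narrowed to -0.13 to 0.32.

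Array 2 read highest in both groups for 5 members, ato, cato, tap, Oli and da, with the smallest margin in the Sage group for ato. The same held for 30.5% of tested probe sets. The intervals of 8 members left out a 2-fold change in either direction, and those of l(1)sc and tap reached beyond 2-fold lower. For ac, sc and amos that statement concerns the array signal, which was in the control range. The Sage mean of cato was also in that range, so its fall in RNA may be larger than its interval allows.

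**Figure D3:**
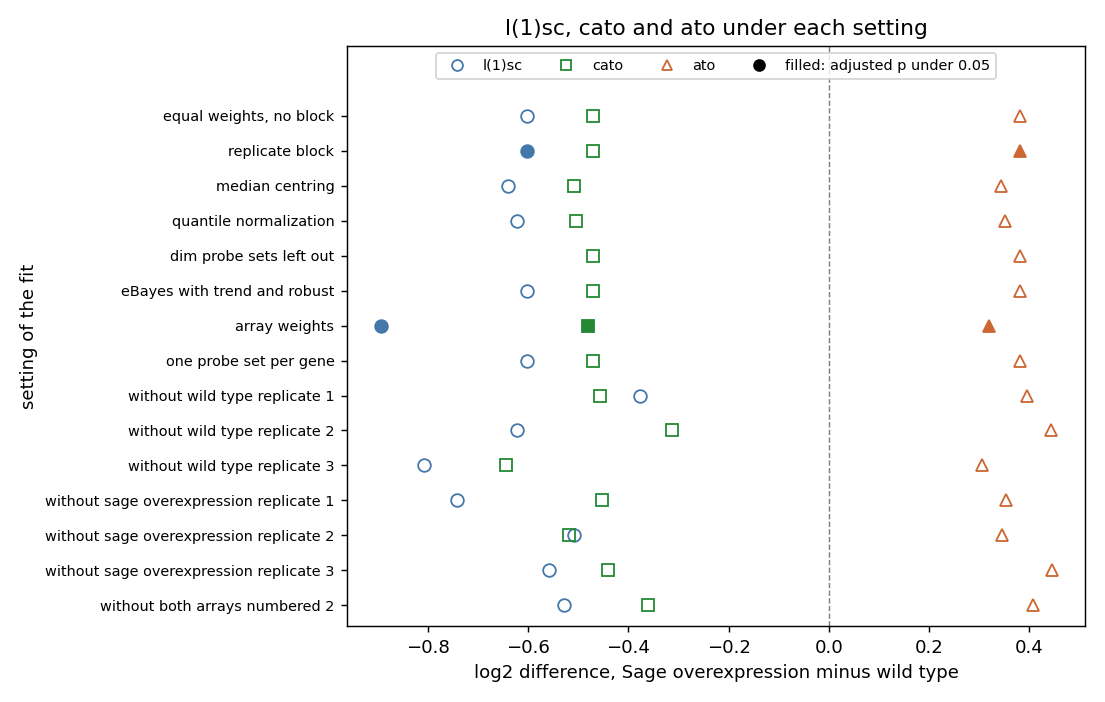
Log2 differences (x axis, Sage overexpression minus wild type) of l(1)sc, cato and ato under each setting of the fit (y axis; treat and the stricter threshold, which leave the difference as it is, are not drawn), filled where the adjusted p was under 0.05. Every point of l(1)sc and cato lies below 0 and every point of ato above it, and filled points occur with the replicate block (l(1)sc and ato) and with array weights (all 3 genes).

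Genes that act with the proneural factors were read from the same fit, each by its brightest probe set. Over all tested probe sets 3.24% passed higher and 2.88% lower, 21.1% had an unadjusted p under 0.05, and the median log2 difference was 0.00053. The groups did not overlap for 27.6%. With the replicate block 5.74% passed higher and 5.94% lower. Upstream, prepattern and neuroectoderm factors fell for 2 of 10 measured genes and rose for 0, with a median log2 difference of -0.48. Dichaete (D), a Sox factor of the neuroectoderm, fell 1.79-fold, from 9.97, 10.20 and 9.63 to 8.92, 9.22 and 9.13 (adjusted p 0.037). Pannier (pnr), a GATA factor that activates achaete-scute in the dorsal ectoderm and notum, fell 1.52-fold, from 8.70, 8.75 and 8.35 to 7.95, 8.09 and 7.95 (adjusted p 0.046). For both genes the groups did not overlap. With the replicate block 5 of the 10 fell and 1 rose, the Iroquois gene mirr (log2 difference 0.64, limma adjusted p 0.035), while its complex neighbours ara and caup were among those lower (log2 difference -0.52 and -0.63, adjusted p 0.048 and 0.047). The other 3 that fell were D, pnr and the homeobox gene Dr. The names mirr, ara, caup and Dr were chosen with their values in view. The call for D held without wild type array 2 or 3 and ended when another array was omitted (adjusted p 0.10 to 0.147). That for pnr held only without wild type array 3, and otherwise the adjusted p was 0.052 to 0.189.

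Notch signalling limits how many cells keep proneural expression, and its list mixed genes that promote the pathway, such as neur, with genes that oppose it, such as H. The list gave no call among 8 measured of 16 listed. An unadjusted p under 0.05 was seen for 3, and the median log2 difference was -0.28. Not measured were N, Dl, Ser, mib1, Su(H), nct, aph-1 and sca, so the counts do not cover them. The smallest p was that of neur, the ubiquitin ligase that activates Notch ligands, at 8.65, 8.23 and 8.12 in wild type and 7.55, 7.82 and 7.68 in Sage overexpression (log2 difference -0.65, adjusted p 0.066). Its groups did not overlap. With the replicate block 1 gene fell, Hairless (H), the corepressor of the Notch response (log2 difference -0.56, limma adjusted p 0.031), named after its value was seen.

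Repressors and antagonists of proneural factors likewise gave no call among 8 measured of 12, with 2 at an unadjusted p under 0.05 and a median of -0.12. Not measured were h, E(spl)mgamma-HLH, E(spl)m8-HLH and Her. E(spl)m3-HLH, a bHLH repressor induced by Notch, read 10.58, 10.72 and 10.21 in wild type and 9.91, 10.09 and 9.76 in Sage overexpression (log2 difference -0.59, adjusted p 0.087). With the replicate block it passed (limma adjusted p 0.021), as did the neuroblast repressor gene dpn (log2 difference -0.49, adjusted p 0.047), named after its value was seen.

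Downstream, 1 of 7 measured sensory organ precursor genes rose and 0 fell, with a list median of 0.01. Senseless (sens), a zinc-finger factor that proneural proteins activate and that is also a gland gene, read 6.62, 6.19 and 6.26 in wild type and 8.21, 8.42 and 8.28 in Sage overexpression (log2 difference 1.94, adjusted p 0.0011). The lowest Sage array stood well above the highest wild type array, whereas no member passed in the fit without a block. Of 14 chordotonal and sensory cilium genes, which act after ato, none passed, 7 had both means in the control range, and 1 had an unadjusted p under 0.05. That gene, Rfx, the ciliary regulator, had a log2 difference of -0.55 (adjusted p 0.202) and passed with the replicate block (limma adjusted p 0.031). The 14 genes had a median of -0.07.

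Other tissue-specific bHLH genes formed a further list, not restricted to genes outside the nervous system. Of 13 measured, 1 rose and 0 fell, with a median of -0.19. The riser was net, a bHLH gene known for limiting wing vein formation, at 6.41, 6.0 and 5.58 in wild type and 7.15, 7.27 and 7.56 in Sage overexpression (2.51-fold, adjusted p 0.022). Its wild type arrays spread over a wider range than its Sage arrays, and the groups did not overlap. Omitting any Sage array ended the call (adjusted p 0.070 to 0.11). With the replicate block, Hand, a bHLH gene of heart and visceral muscle, fell as well (log2 difference -0.66, limma adjusted p 0.031), named after its value was seen.

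Neuron markers gave no call among 6 measured of 8, none had an unadjusted p under 0.05, and their median log2 difference was 0.23. The log2 of their summed signal ranged from 11.80 to 12.47 over wild type arrays and from 11.86 to 12.39 over Sage arrays. The smallest p was that of the synaptic gene nSyb (log2 difference 0.22, adjusted p 0.352). The wild type arrays differed among themselves for elav, a marker of all neurons, at 10.33, 10.03 and 8.31, against 9.93, 9.79 and 9.90 in the Sage embryos. Among 10 measured markers of other tissues 1 rose, the gland enzyme gene PH4alphaSG1 (2.82-fold, adjusted p 0.0088; 0.052 or 0.055 when Sage array 2 or 3 was omitted), and 0 fell, with a median of -0.13 and a log2 summed signal of 11.82 to 12.18 in wild type and 12.01 to 12.10 in Sage embryos. The part of cell composition in the members' values was not tested.

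**Figure D4:**
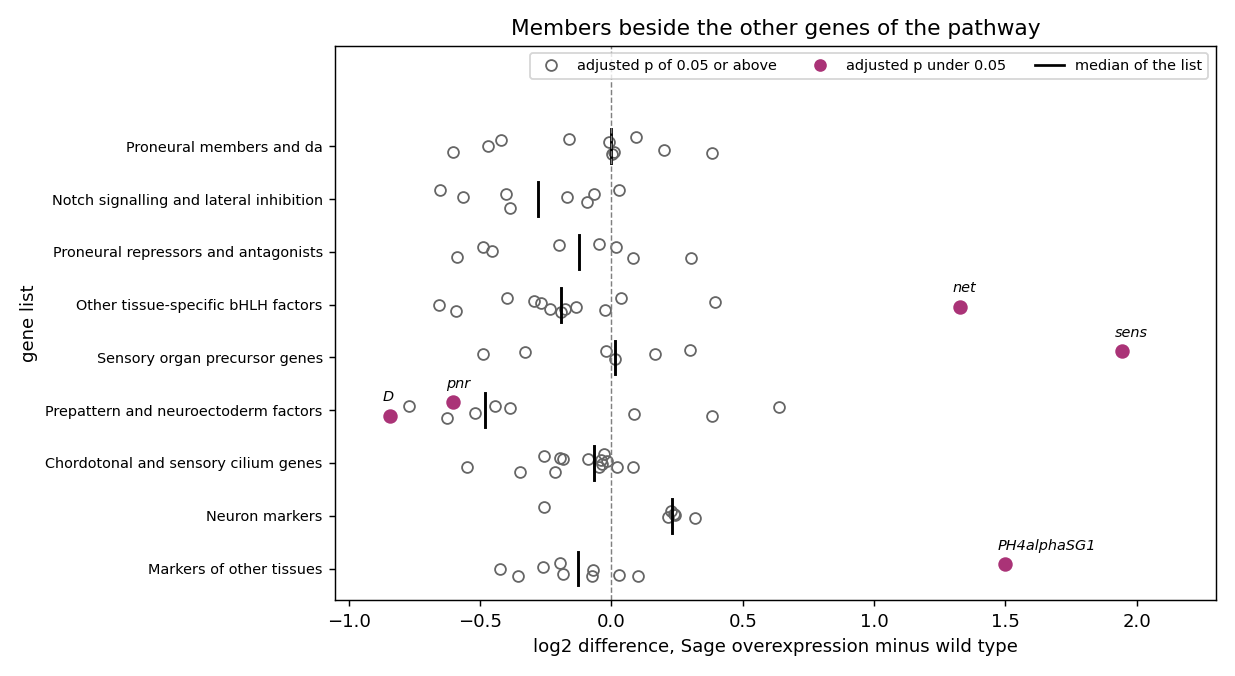
Log2 differences (x axis, Sage overexpression minus wild type) of the 10 members and of the measured genes in each list (y axis), filled and named where the adjusted p was under 0.05 over all probe sets, with a bar at each list's median. No member is filled, and the filled genes are net, sens and PH4alphaSG1 above 0 and D and pnr below it; points are spread vertically only to keep them apart.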

How the data were processed

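The authors deposited 1 table of values for 6 arrays, made with RMA and Partek per the submitters' processing notes, which give no version. A log2 scale of the deposited values is inferred from their range of 2.90 to 14.62 and array means of 6.36. Embryos were aged at 25 C and sorted, per the labels' protocols.

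Of 18952 probe sets, 183 controls were left out. Of the 18769 tested, 13647 had 1 gene in the platform annotation, 402 several and 4720 none listed. Entrez numbers of 13544 were found in the Release 6 gene table, which served for symbols and gene order. The groups were compared with limma 3.58.1 in R 4.3.3 (lmFit, eBayes, two-sided, Benjamini-Hochberg over all probe sets at 0.05). The difference needed to pass is the one that would give the largest unadjusted p among calls, 0.0031. Tested on simulated data for this comparison on 18769 probe sets, 26%, 68%, 96% and 98% of 50 probe sets changed by 0.5, 1, 2 and 4 on the log2 scale were recovered. The simulation gave 150 calls, 6 of them false, against 1149 in the data. With fewer changed probe sets the adjustment was stricter there, so recovery in the data may differ.

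Named were every member, sage, up to 4 genes past the threshold per list or the one with the smallest p, and the 3 profiles nearest to da and to the member with the smallest p. Members and lists were chosen with earlier results of these data known. Of the listed genes, those without a probe set of their own were not analysed here. Arrays of the same replicate number had deviations that correlated at 0.39, 0.67 and 0.33, each over 0.1. The main test left this possible pairing out, and the fit with the replicate block took it in. Such a pairing rests on the data, since the labels do not say what a number shares, and wild type 3 with Sage 1 correlated at 0.43. Python 3.11.15 with pandas 2.3.3 and matplotlib 3.10.9 made the figures. Settings tried besides were the replicate block, median centring, quantile normalization, leaving out dim probe sets, eBayes with trend and robust, array weights, 1 probe set per gene, treat (minimum log2 difference 0.58), a stricter adjusted p of 0.01, leaving out each array and leaving out both arrays numbered 2.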

Additional observations from a re-analysis of the deposited data

How the results depend on the processing

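The number of arrays limits the precision, and the cause of each change given here was not tested. Across all probe sets 1149 passed, 2191 with the replicate block, 3986 with array weights, 349 at an adjusted p of 0.01, 158 with treat, and 335 to 1857 when 1 array was left out, lowest without Sage array 3 and highest without wild type array 2. Without Sage array 1 or 2 there were 461 and 422. Members past the threshold numbered 0, but 2 with the replicate block and 3 with array weights, and 0 in every fit that left out 1 array.

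Signs of l(1)sc, cato, ato, amos and tap held in each setting run. Leaving out 1 array gave -0.81 to -0.38 for l(1)sc, -0.64 to -0.31 for cato, 0.31 to 0.45 for ato, -0.16 to 0.12 for ac, -0.11 to 0.20 for sc, -0.39 to 0.080 for ase, -0.18 to 0.13 for da, -0.048 to 0.25 for Oli, -0.70 to -0.11 for tap (lowest size without wild type array 2) and 0.12 to 0.26 for amos (lowest without Sage array 2). With median centring ac was -0.034 and sc -0.027, with quantile normalization ac -0.016, sc -0.0095 and da 0.026, and with array weights ac -0.098, sc -0.22 and da 0.012. Without both arrays numbered 2, da was 0.033 and sc -0.077. With dim probe sets left out, ac, sc, l(1)sc and amos gave no value.

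Genes past the threshold in the lists changed as follows. With the replicate block there were 1 in the Notch list, 2 repressors and antagonists, 2 other bHLH genes, 6 prepattern factors and 1 cilium gene. With array weights there were 4 in the Notch list, 3 repressors and antagonists, 6 other bHLH genes, 3 sensory organ precursor genes, 6 prepattern factors, 3 cilium genes, 1 neuron marker and 3 markers of other tissues. Prepattern factors numbered 1 with quantile normalization, 1 with dim probe sets left out, 1 with eBayes with trend and robust, 0 at an adjusted p of 0.01, 0 with treat and 4 without both arrays numbered 2. Other bHLH genes numbered 0 at an adjusted p of 0.01 and 0 with treat. Markers of other tissues numbered 0 with treat and 2 without both arrays numbered 2. Leaving out 1 array gave 0 to 1 in the Notch list, 0 to 1 repressors and antagonists, 0 to 2 other bHLH genes, 0 to 3 prepattern factors, 0 to 1 cilium genes and 0 to 2 markers of other tissues. No other call changed with the replicate block.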
